A study of Mus musculus with 6 samples.

Results

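The 8 genes examined here encode ligands of the tumour necrosis factor (TNF) superfamily that T cells can display or release. They were Tnfsf14 (LIGHT), Tnfsf11 (RANKL), Tnfsf8 (CD30 ligand), Tnfsf9 (the ligand of the costimulatory receptor Tnfrsf9), Tnfsf4 (OX40 ligand), Fasl, Tnfsf10 (TRAIL) and Cd40lg (CD40 ligand). They were chosen by exact gene symbol, out of 18193 genes with a probe set of 1 symbol on the array, and were covered by 13 of its 45101 probe sets. Wild-type (Nrdp1+/+) and Nrdp1-/- CD8+ T cells of strain C57/BL6, isolated as naive cells from spleen, were compared. The product of the deleted gene, Rnf41, attaches ubiquitin to other proteins. Cells of either genotype were untreated, or were stimulated for 4 h or 8 h with 2 antibodies that engage the T cell receptor and the costimulatory receptor CD28: anti-CD3, immobilized (5 µg/ml), and anti-CD28 in solution (1 µg/ml). The treatment tag of the stimulated samples names anti-CD28 alone. Each of these 6 groups had 1 Affymetrix mouse genome array. The labels give neither the number, age or sex of the mice nor how the deletion was made. With 1 array per group, the spread behind a p-value is the departure of the 6 arrays from additive effects of time and genotype. It mixes any dependence of the genotype difference on time with scatter between arrays, which may be technical.

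TNF superfamily ligands are mostly made as trimeric membrane proteins and signal to receptors of the TNF receptor superfamily on neighbouring cells. Receptors with a death domain, such as Fas, can start apoptosis. Others bind TRAF adaptors and pass on NF-kB and survival signals. On CD8+ T cells Fasl serves killing of target cells. LIGHT and the ligands of OX40, CD30 and Tnfrsf9 act in costimulation. RANKL is best known for driving osteoclast formation and for acting on dendritic cells, and CD40 ligand is mainly a product of helper CD4+ T cells.

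Values are MAS5 signals in arbitrary units on a linear scale, for the brightest probe set of a gene by its mean over the 6 arrays. A signal below the median of its own array (61.5 to 68.6) is called dim. Log2 differences are of log2(signal + 4.45), with the standard error (SE) from limma over 6 arrays. The number of arrays limits the precision. In RNA of a whole cell preparation, fewer cells of a type and less RNA per cell cannot be told apart.

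The labels were checked against marker genes first. Summed signals of 6 CD8+ T cell markers lay between 54220 and 66260, and none was dim on all arrays. Of 4 CD4+ T cell markers, with summed signals of 448.3 to 890.5, Cd4 and Foxp3 were dim on all 6 arrays, Zbtb7b was dim on 2 and reached 107, and Ikzf4 read 395 to 770. Rnf41 had 4 probe sets, of which the brightest read 728, 505 and 639 in untreated, 4 h and 8 h wild-type cells and 528, 437 and 477 in Nrdp1-/- cells. Another read 161 to 181 against 54.5 to 83.7, and the mean differences of the remaining 2 were -0.0020 and 0.25 on the log2 scale. The sources used here do not say which of them the deletion removes, so the labels remain unchecked by this gene. The extraction text names whole colon: 5 of 11 colon epithelium and smooth muscle markers were dim on all 6 arrays, including Krt20, Vil1 and Muc2, and their summed signal was 491.8 to 940, with Epcam at 341 to 529 in wild-type and 173 to 241 in Nrdp1-/- cells. Epcam was lower in Nrdp1-/- cells (-1.06 ± 0.15, limma adjusted p = 0.00141) and Car1 was higher (2.27 ± 0.36, adjusted p = 0.00304), at 135 to 286 against 33.9 to 36.4, where it was dim. Car1 passed the brightness filter for testing only through its Nrdp1-/- arrays, so its call is a description only.

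Markers of other cell types were then compared between the genotypes. The summed signal of 7 B cell markers was 7126 to 8302 on wild-type arrays and 1379 to 1946 on Nrdp1-/- arrays, and all 6 tested markers were lower (limma). That of 9 myeloid markers was 1012 to 1285 in wild-type cells, but 6260 in untreated, 3684 in 4 h and 1398 in 8 h Nrdp1-/- cells, with 3 of 8 tested markers higher and Itgam dim throughout. For 9 memory-like CD8+ T cell markers it was 41010 to 49070 against 49260 to 56480, with 7 of 9 higher. The corresponding ranges were 489.4 to 552.2 and 611.1 to 1475 for 4 natural killer cell markers (Ncr1 dim throughout, 1 of 3 tested higher), 366.2 to 402.8 and 441.6 to 545.7 for 4 platelet markers (Ppbp and Gp9 dim throughout, 0 of 2 tested called and 1 at an unadjusted p under 0.05), and 242.3 to 321.9 and 261.9 to 443 for 5 dendritic cell markers (Flt3 and Xcr1 dim throughout, 1 of 2 tested higher). Over all genes tested 2.47% were higher and 2.57% lower in Nrdp1-/- cells. The part of these other cell types in any ligand difference between genotypes was not tested.

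Promoter sequences from RefSeq (GRCm38.p6) were held for 5 of the 8 genes: Tnfsf14, Tnfsf11, Tnfsf8, Fasl and Tnfsf10. The 250 bases before the transcription start are shown for the 3 ligand genes that rose at both times of stimulation. Capitals mark GGAAA, the core bound by NFAT, TGANTCA, the AP-1 site, and a loose form of the NF-kB site, which is GGG, any 5 bases and CC, on either strand and with overlaps allowed.
Tnfsf14, chr17:57194182-57194431, minus strand: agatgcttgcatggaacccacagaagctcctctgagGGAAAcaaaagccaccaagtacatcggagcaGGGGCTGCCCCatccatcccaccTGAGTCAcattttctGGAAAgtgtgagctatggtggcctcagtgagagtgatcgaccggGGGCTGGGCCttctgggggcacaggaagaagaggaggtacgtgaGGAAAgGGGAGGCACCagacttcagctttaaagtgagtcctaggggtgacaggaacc
Tnfsf11, chr14:78308044-78308293, minus strand: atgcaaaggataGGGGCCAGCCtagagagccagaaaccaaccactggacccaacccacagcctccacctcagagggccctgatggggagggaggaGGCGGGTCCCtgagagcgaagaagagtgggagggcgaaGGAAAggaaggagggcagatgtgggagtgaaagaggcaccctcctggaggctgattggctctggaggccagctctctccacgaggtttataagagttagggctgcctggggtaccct
Fasl, chr1:161788496-161788745, minus strand: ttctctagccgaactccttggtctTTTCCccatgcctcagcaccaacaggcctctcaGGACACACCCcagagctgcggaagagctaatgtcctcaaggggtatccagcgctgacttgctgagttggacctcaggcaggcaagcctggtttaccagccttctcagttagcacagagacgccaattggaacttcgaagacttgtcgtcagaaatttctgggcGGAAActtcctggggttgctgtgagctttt
The Tnfsf14 window held 3 matches to GGAAA, 1 to TGANTCA and 4 to the loose NF-kB site, of which 2 overlap each other. In Tnfsf11 there were 1, 0 and 2, and in Fasl 2, 0 and 1. Tnfsf8 and Tnfsf10 each had 1 match to GGAAA and 0 to either of the others. Of 32851 promoter windows of the same length, 55.6% held GGAAA, 6.75% TGANTCA and 45.8% the loose NF-kB site, so the matches are described only as letters present.

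Stimulation raised transcripts of 3 of the 7 testable ligands at 4 h, Tnfsf14, Tnfsf11 and Fasl, and of these and Tnfsf8 at 8 h. None of the 7 fell at either time. Over all 10838 genes tested, 8.01% rose and 5.51% fell at 4 h (13.5% in all), and 9.88% rose and 9.26% fell at 8 h (19.1% in all; limma, adjusted p under 0.05). The median change of the 7 was 0.55 at 4 h and 0.92 at 8 h, against -0.049 and -0.067 over all genes tested. Testable means a signal at or above the array median on at least 2 of 6 arrays. Cd40lg failed this, and Tnfsf14 and Tnfsf11 met it only through the 4 stimulated arrays, so these counts are a description and not support for a shared behaviour.

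**Figure D1:**
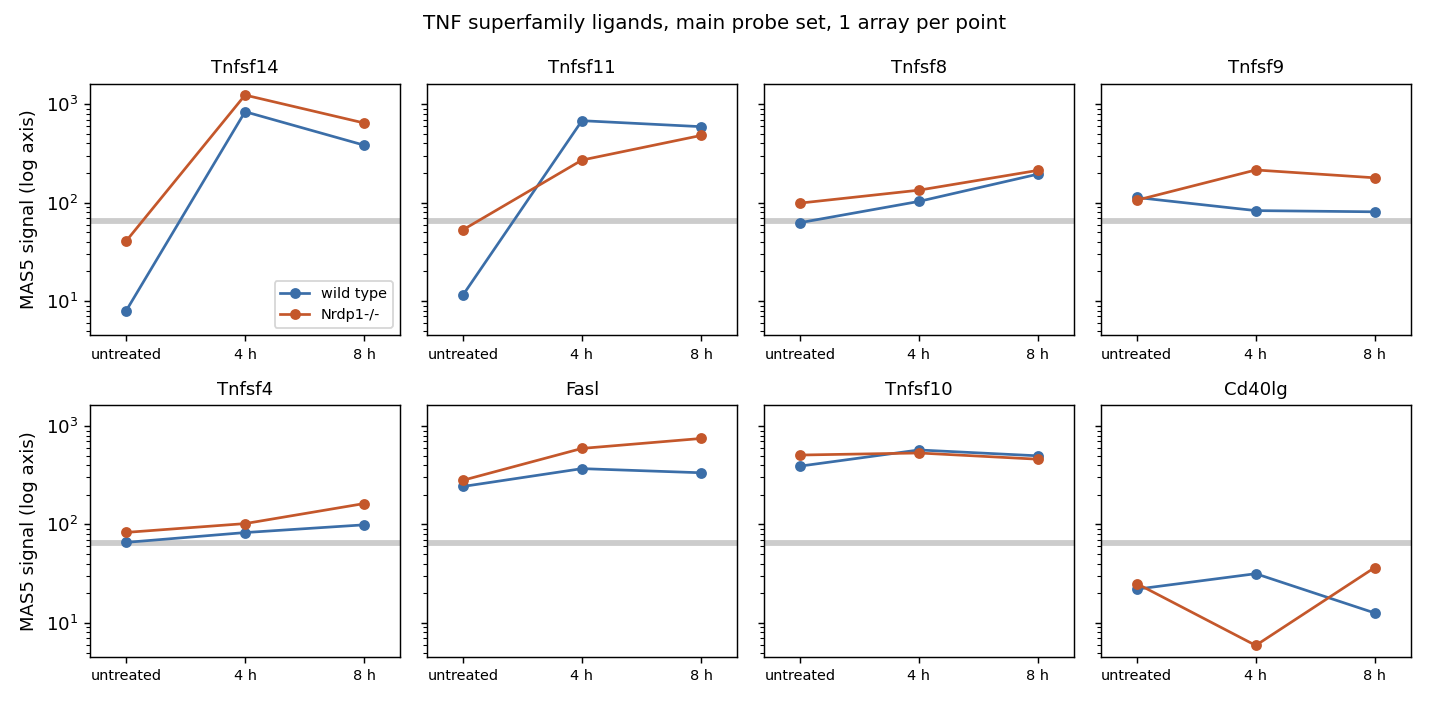
MAS5 signal (log axis) of the 8 ligand genes in untreated, 4 h and 8 h cells, with 1 array per point, wild type in blue and Nrdp1-/- in orange, and the range of the array medians as a grey band. Tnfsf14 and Tnfsf11 climb from below the band, Tnfsf9 and Fasl separate by genotype after stimulation, Tnfsf10 stays between 391 and 571, and Cd40lg stays below the band on all 6 arrays.

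Tnfsf14 encodes LIGHT, which binds Tnfrsf14 (HVEM) and the lymphotoxin beta receptor Ltbr. It read 7.94 in untreated, 840 in 4 h and 384 in 8 h wild-type cells, and 40.6, 1240 and 645 in Nrdp1-/- cells. Both untreated arrays were dim, and the stimulated and untreated values did not overlap. Tnfsf14 became testable only through its stimulated arrays, so its calls with stimulation are a description. Its rise was 5.44 ± 0.29 at 4 h (limma, adjusted p = 5.67e-07) and 4.41 ± 0.29 at 8 h (adjusted p = 3.04e-06), which as bounds against the array medians are at least 14.8-fold and at least 7.23-fold. Each genotype read lower at 8 h than at 4 h, at 0.457 of the 4 h signal in wild-type and 0.52 in Nrdp1-/- cells, but the difference was not called (-1.03 ± 0.29 in limma, adjusted p = 0.329). Leaving out either untreated array brought it past, although untreated arrays take no part in this estimate, which stayed at -1.03. Only its SE fell, to 0.195 without wild type and 0.218 without Nrdp1-/-.

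The signal of Tnfsf14 was higher in Nrdp1-/- cells at all 3 times, by 1.05 ± 0.24 on average (limma, adjusted p = 0.0285). The largest of the 3 differences, 1.86, came from the untreated arrays, where both were dim. At 4 h and 8 h it was 0.56 and 0.74, or 1.48 and 1.68 times the wild-type signal. Over the 4 stimulated arrays alone, a fit with 1 residual degree of freedom, it was 0.65 ± 0.16 (limma, adjusted p = 0.00238). The call was lost in 4 of 15 alternatives, among them leaving out the untreated Nrdp1-/- array (0.65, limma adjusted p = 0.0535), and without the untreated wild-type array it was 0.65 as well (adjusted p = 0.0204). Over all alternatives adjusted p ranged from 0.0013 to 0.254. A second, dimmer probe set read 2.13, 204 and 30.2 in wild-type and 3.02, 195 and 100 in Nrdp1-/- cells. It thus showed the rise, with genotype differences of 0.18 untreated, -0.066 at 4 h and 1.60 at 8 h. Its untreated arrays and its 8 h wild-type array were dim.

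Tnfsf11 encodes RANKL, whose receptor is Tnfrsf11a (RANK) and whose decoy is Tnfrsf11b. It read 11.5, 681 and 592 in wild-type cells and 53, 271 and 482 in Nrdp1-/- cells, in the order untreated, 4 h, 8 h. Untreated cells were again dim in both genotypes and lay below every stimulated array. Tnfsf11 too became testable only through its stimulated arrays, so its calls with stimulation are a description. The rise was 3.84 ± 0.54 at 4 h (limma, adjusted p = 0.000834; at least 6.26-fold) and 4.16 ± 0.54 at 8 h (adjusted p = 0.00043; at least 7.76-fold). It passed in 13 of 14 alternatives at either time, the exception being the fit without the intensity trend (adjusted p = 0.119 at 4 h and 0.0868 at 8 h).

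Unlike Tnfsf14, Tnfsf11 read lower in Nrdp1-/- than in wild-type cells once stimulated. The Nrdp1-/- signal was 0.398 of wild type at 4 h and 0.815 at 8 h, while in untreated cells it was higher by 1.85 on the log2 scale with both arrays dim. Averaged over the 3 times the difference was 0.081 ± 0.44, with a 95% interval from -0.89 to 1.05. Over the 4 stimulated arrays alone it was -0.80 ± 0.18 (limma, adjusted p = 0.000516), from single differences of -1.32 at 4 h and -0.29 at 8 h. That fit has 1 residual degree of freedom, so its SE rests mostly on the intensity trend and not on these single differences. Leaving out either untreated array gives the same -0.80 by construction, since the genotype term then rests on these 4 arrays. The genotype-by-stimulation term, the genotype difference after stimulation less that before it, was -2.66 ± 0.49 (limma, adjusted p = 8.47e-05). Of all genes tested 0.129% had a negative and 0.0923% a positive term past the threshold (0.221% in all), and Tnfsf11 was the only one of the 7 ligands past it in either direction. That test has 1 residual degree of freedom and takes its spread wholly from the intensity trend; its call was lost without the trend (adjusted p = 0.759) and with the probe sets of each gene averaged (adjusted p = 1). The dimmer of its 2 probe sets gave the same order of arrays after stimulation, at 129 and 118 in wild-type and 54.6 and 90.3 in Nrdp1-/- cells, and 5.42 and 20.5 untreated.

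**Figure D2:**
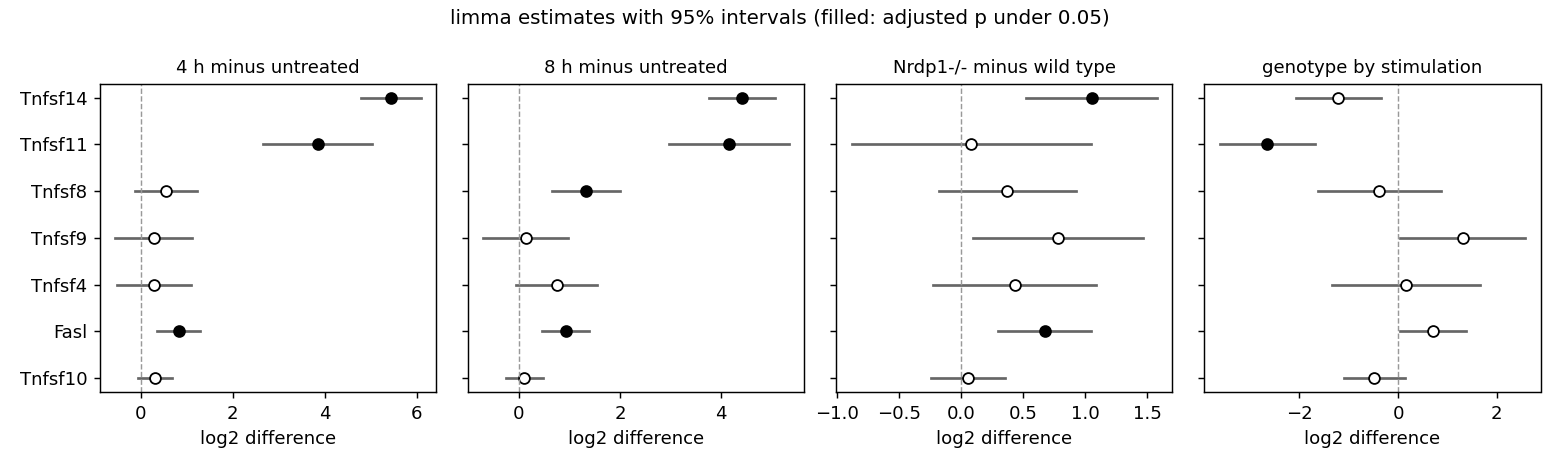
Log2 differences (points) with 95% intervals (lines) from limma for the 7 testable ligands: 4 h and 8 h against untreated, Nrdp1-/- against wild type, and the genotype-by-stimulation term. Filled points passed an adjusted p of 0.05; the horizontal scale differs between panels, with Tnfsf14 at 5.44 at 4 h and Tnfsf11 at -2.66 in the last panel.

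Among the costimulatory ligands of lower signal, Tnfsf8, which binds CD30 (Tnfrsf8), was the only one called with stimulation. It read 62.6, 103 and 195 in wild-type cells and 99, 134 and 213 in Nrdp1-/- cells. Every stimulated array lay above both untreated ones, with the untreated wild-type array dim. The difference was 0.55 ± 0.31 at 4 h (limma, adjusted p = 0.278) and 1.32 ± 0.31 at 8 h (adjusted p = 0.0129), or 2.50-fold, with 2.16-fold within Nrdp1-/- and at least 2.87-fold within wild-type cells. The 8 h call was lost in 3 of 13 alternatives, among them leaving out the untreated or the 8 h wild-type array (highest adjusted p = 0.0851). Between genotypes Tnfsf8 differed by 0.37 ± 0.25, with a 95% interval from -0.18 to 0.93.

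Tnfsf9, whose receptor Tnfrsf9 is a costimulator of activated CD8+ T cells, read lower after stimulation in wild-type cells and higher in Nrdp1-/- cells. Wild-type cells read 113 untreated, 83.1 at 4 h and 80.8 at 8 h, and Nrdp1-/- cells 106, 215 and 179. The stimulated Nrdp1-/- arrays thus lay above all others, at 2.59 and 2.22 times wild type, while the untreated pair was at 0.936. Stimulation, averaged over both genotypes, gave no call (0.29 ± 0.38 at 4 h, 0.14 ± 0.38 at 8 h). The genotype difference was 0.78 ± 0.31 over the 3 times (limma, adjusted p = 0.227). Over the 4 stimulated arrays, a fit with 1 residual degree of freedom, it was 1.22 ± 0.36 (limma, adjusted p = 0.0175). Leaving out either untreated array returns that 1.22 by construction, since the genotype term then rests on these 4 arrays. The genotype-by-stimulation term was 1.31 ± 0.65, with a 95% interval from 0.037 to 2.58, and did not pass over all genes (limma, adjusted p = 1).

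Tnfsf4, the ligand of OX40 (Tnfrsf4), was close to the array medians. It read 65.7, 82.7 and 99.1 in wild-type and 83, 102 and 163 in Nrdp1-/- cells. The Nrdp1-/- array was the higher one at all 3 times, at 1.26, 1.23 and 1.64 times wild type, though over all times the ranges of the genotypes overlapped. No comparison passed the threshold. Its difference at 8 h was 0.75 ± 0.37 (limma, adjusted p = 0.183), with a 95% interval from -0.056 to 1.55, and between genotypes it was 0.43 ± 0.30 (limma, adjusted p = 0.537).

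Of the ligands that can start apoptosis, Fasl rose and was higher without Nrdp1. It read 243, 369 and 335 in wild-type and 281, 592 and 747 in Nrdp1-/- cells, above the median on all 6 arrays. Both untreated arrays lay below all stimulated ones, and both stimulated Nrdp1-/- arrays lay above all others. The rise over both genotypes was 0.83 ± 0.21 at 4 h (limma, adjusted p = 0.0248) and 0.92 ± 0.21 at 8 h (adjusted p = 0.0118). Within wild-type cells the 4 h and 8 h signals were 1.52 and 1.38 times untreated, and within Nrdp1-/- cells 2.11 and 2.65 times. Calls at 4 h and 8 h were lost in 5 and 4 of 14 alternatives, including leaving out the untreated Nrdp1-/- array (0.47 at 4 h and 0.57 at 8 h), either 4 h array (0.83 at 4 h) and the 8 h Nrdp1-/- array (0.57 at 8 h).

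The Fasl difference between genotypes was 0.68 ± 0.17 (limma, adjusted p = 0.0476), with single differences of 0.21 untreated, 0.68 at 4 h and 1.15 at 8 h. Fasl and Tnfsf14 were the 2 of 7 ligands higher in Nrdp1-/- cells, where 2.47% of all genes were higher and 2.57% lower (5.05% in all). The median difference of the 7 ligands was 0.43, against -0.011 over all genes tested. The Fasl call lay close to the threshold and was lost in 9 of 15 alternatives, among them leaving out any 1 of the 4 stimulated arrays (0.44 without either 8 h array), with adjusted p from 3.69e-05 to 0.284. Over the 4 stimulated arrays alone, a fit with 1 residual degree of freedom, the difference was 0.91 ± 0.18 (limma, adjusted p = 3.69e-05). Its genotype-by-stimulation term of 0.71 ± 0.34 did not pass (limma, adjusted p = 1). The second Fasl probe set, at 131, 173 and 154 in wild-type and 167, 277 and 308 in Nrdp1-/- cells, put the genotype difference at 0.66.

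Tnfsf10 encodes TRAIL, which binds Tnfrsf10b and the decoys Tnfrsf22 and Tnfrsf23. Its signal was 391, 571 and 498 in wild-type and 507, 532 and 460 in Nrdp1-/- cells, and the highest array was 1.46 times the lowest. No comparison passed. The 4 h difference was 0.31 ± 0.17 with a 95% interval from -0.058 to 0.67, the 8 h difference 0.10 ± 0.17 (-0.26 to 0.47), and the genotype difference 0.052 ± 0.14 (-0.25 to 0.35). Of its other probe sets, 1 read 329 to 483 and the third was dim on 4 of 6 arrays, and their mean 4 h differences were 0.40 and -0.20.

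Cd40lg was dim on all 6 arrays by its 1 probe set, at 22, 31.6 and 12.6 in wild-type and 25.1, 5.9 and 36.5 in Nrdp1-/- cells. These values have no order between genotypes or times, and no fold is given. Cd4, the defining marker of the cells that are its main source, was dim as well, at 6.06 to 15.7, while Zbtb7b and Ikzf4 of the same marker list reached 107 and 770.

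**Figure D3:**
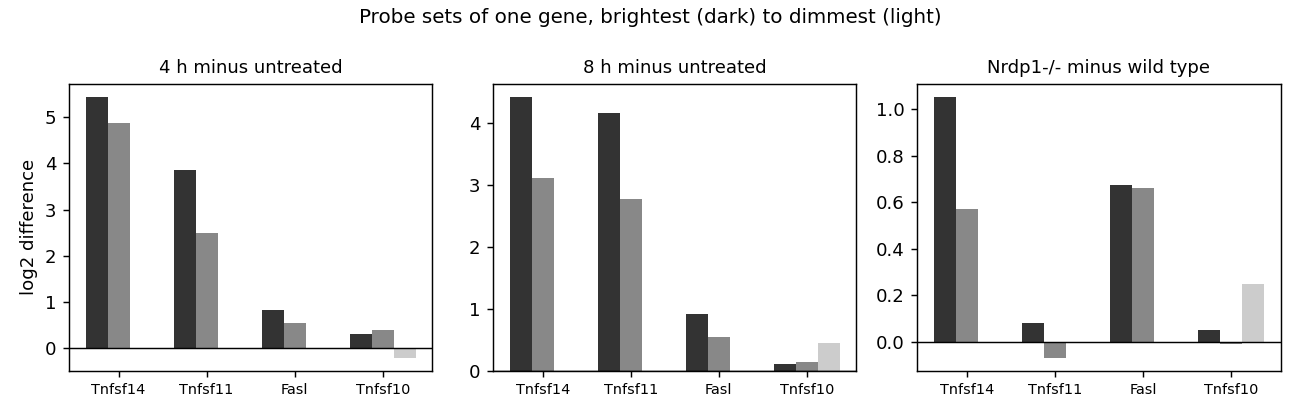
Mean log2 difference of each probe set of the 4 ligands with more than 1, from brightest (dark) to dimmest (light), without a test, for 4 h and 8 h against untreated and for Nrdp1-/- against wild type. The probe sets of Tnfsf14, Tnfsf11 and Fasl share the sign of the stimulation differences, and those of Tnfsf11 straddle 0 between genotypes (0.081 and -0.068).

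Between 4 h and 8 h 0 of the 7 ligands changed past the threshold in limma, with and without the intensity trend, and 2 had an unadjusted p under 0.05: Tnfsf14, and Tnfsf8 (0.77 ± 0.31). Over all genes 0.0185% were higher and 0.0277% lower at 8 h (0.0461% in all).

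The receptors of these ligands were examined from a list of 12, of which 7 were testable. At 4 h Tnfrsf9 (2.92 ± 0.18, limma adjusted p = 1.6e-06) and Fas (0.95 ± 0.15, adjusted p = 0.00158) rose. At 8 h Tnfrsf9 (limma, adjusted p = 1.41e-06) and Cd40 (1.36 ± 0.36, adjusted p = 0.0229) rose. None of the 7 fell at either time. For comparison, 8.01% of all genes tested rose and 5.51% fell at 4 h, and 9.88% rose and 9.26% fell at 8 h. Tnfrsf9, the receptor of Tnfsf9, read 84.7, 743 and 627 in wild-type and 133, 926 and 1240 in Nrdp1-/- cells, so that in each genotype both stimulated arrays lay above the untreated one. Fas read 641, 1140 and 733 in wild-type and 549, 1160 and 903 in Nrdp1-/- cells, and its genotype difference was 0.035 ± 0.12. Cd40, a receptor known from B cells and antigen-presenting cells, read 73.9, 146 and 178 in wild-type and 37.2, 97.1 and 113 in Nrdp1-/- cells, and the genotype difference was not called (-0.70 ± 0.29, limma adjusted p = 0.258). The part of the B cells, whose markers were lower in Nrdp1-/- cells, in the Cd40 values was not tested.

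Between genotypes the receptor that differed most was Tnfrsf14, the HVEM receptor of LIGHT. Its single probe set read 43.4, 50.4 and 113 in wild-type cells, dim on the first 2, and 516, 757 and 517 in Nrdp1-/- cells, with no overlap. The difference was 3.13 ± 0.28 (limma, adjusted p = 5.21e-05). Of the wild-type arrays only that of 8 h reached its median, so the gene became testable through its Nrdp1-/- arrays. The call is therefore a description, and its size rests partly on dim signals. With stimulation it changed by 0.37 ± 0.34 at 4 h and 0.65 ± 0.34 at 8 h, neither past the threshold. Tnfrsf9 was the other receptor higher in Nrdp1-/- cells (0.64 ± 0.15, limma adjusted p = 0.0302), and 0 of the 7 were lower. The shares over all genes tested were 2.47% higher and 2.57% lower. Tnfrsf4 read 558 to 889 on all arrays without a call, and Tnfrsf22 and Tnfrsf23 gave none either. Ltbr, Tnfrsf10b, Tnfrsf11a and Tnfrsf11b were dim on all 6 arrays and Tnfrsf8 on 5, so no signal above the median was seen for RANK while its ligand rose.

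**Figure D4:**
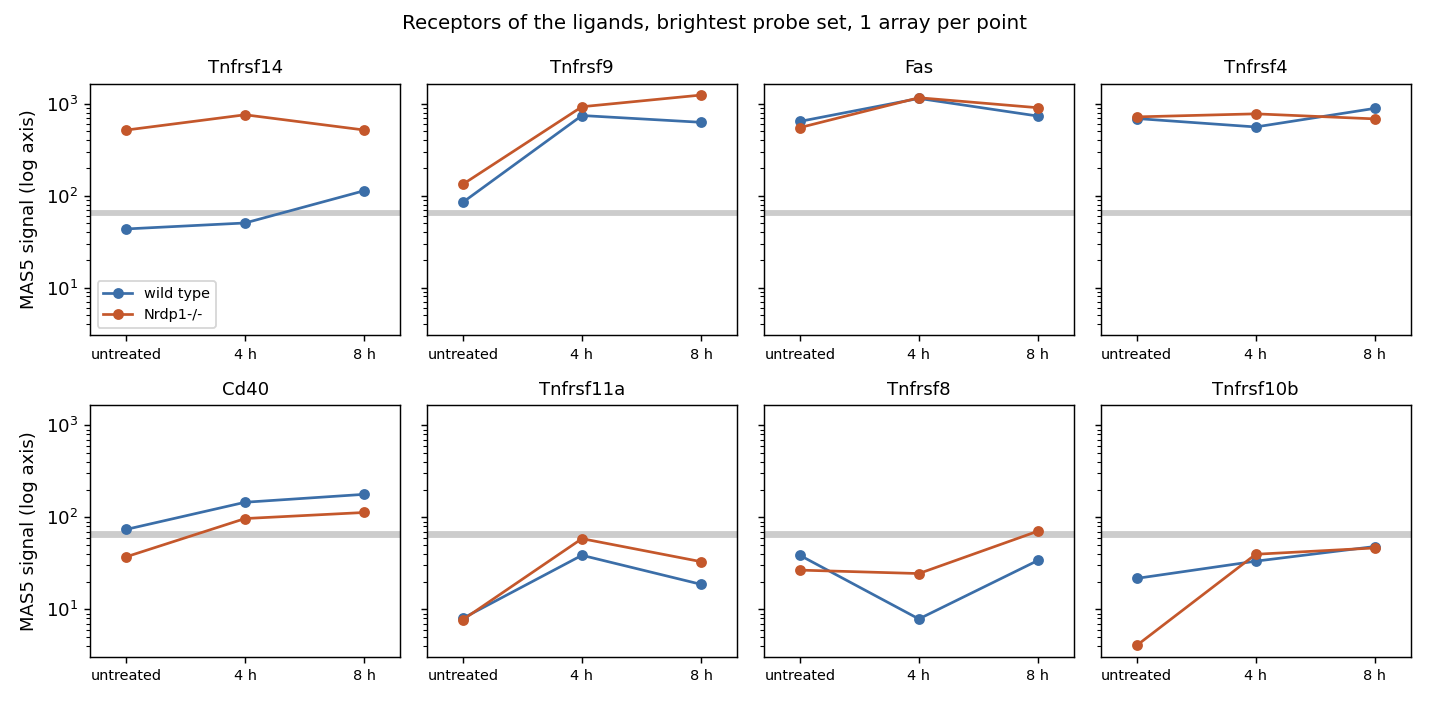
MAS5 signal (log axis) of 8 receptors of the ligands in untreated, 4 h and 8 h cells, with 1 array per point, wild type in blue, Nrdp1-/- in orange and the array medians as a grey band. Tnfrsf14 is separated by genotype at every time (43.4 to 113 against 516 to 757), Tnfrsf9 by stimulation, and Tnfrsf11a and Tnfrsf10b lie below the band.

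Of 10 other ligands of the family, 3 were testable. Tnf rose by 4.21 ± 0.20 at 4 h and 3.90 ± 0.20 at 8 h, and Lta, the lymphotoxin alpha gene, by 2.40 ± 0.20 and 2.64 ± 0.20 (limma, adjusted p at most 1.92e-05). Ltb, which pairs with Lta in the membrane form of lymphotoxin, read 22900 to 30000 throughout and did not pass at 4 h (0.098 ± 0.11) or 8 h (-0.072 ± 0.11). Lta was not called between genotypes (0.37 ± 0.16, limma adjusted p = 0.289), and Tnf was higher in Nrdp1-/- cells (1.06 ± 0.16, adjusted p = 0.00252). Cd70, Eda and Tnfsf13b were too dim to test. Over all genes tested 13.5% were called at 4 h, 19.1% at 8 h and 5.05% between genotypes.

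Adaptors and regulators that act downstream of the receptors were taken from a list of 14. Of 12 tested, Birc3, a ubiquitin ligase of TNF receptor complexes, rose (0.58 ± 0.11 at 4 h, 0.40 ± 0.11 at 8 h) and Traf5 fell (-0.61 ± 0.12 and -0.51 ± 0.12), joined at 8 h by Traf1 (-0.41 ± 0.10; limma, adjusted p at most 0.0226 for each). The median of the 12 was 0.085 at 4 h and -0.045 at 8 h. Over all genes tested 13.5% were called at 4 h, 19.1% at 8 h and 5.05% between genotypes, so these calls are not read as a result about the list. None of the 12 differed between genotypes past the threshold in limma, and 0 had an unadjusted p under 0.05. Of 5 enzymes that cut or process such ligands, Adam10, Adam17, Sppl2a, Sppl2b and Furin, 0 were called with stimulation or between genotypes in limma, with an unadjusted p under 0.05 for 0 at 4 h, 0 at 8 h and 1 between genotypes.

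The genes whose pattern over the 6 arrays was most like that of a ligand were sought among 1614 genes with a standard deviation of at least 0.5. Likeness was the root mean square difference of log2 values, each gene centred on its own mean. For Tnfsf14 the closest were the chemokine genes Ccl3 (0.317) and Ccl4 (0.348) and the cytokine gene Csf2 (0.387), with a median of 2.53 over all candidates. Ccl3 read 52.4, 6030 and 2480 in wild-type and 207, 8350 and 5480 in Nrdp1-/- cells, which puts the arrays in the same order as Tnfsf14 does. For Tnfsf11 they were Lad1 (0.629), Mfsd2a (0.705) and Bcat1 (0.739), with a median of 2.12. After stimulation Lad1 read lower in Nrdp1-/- than in wild-type cells, as Tnfsf11 did, but Mfsd2a and Bcat1 read higher. The nearest to Tnfsf9 were Fam184b (0.124), Srxn1 (0.189) and Nkg7 (0.2), to Fasl Gmppb (0.129), Kyat3 (0.178) and Dll1 (0.19), and to Tnfsf8 Igfbp7 (0.102), Marchf10 (0.141) and Tes3-ps (0.142). Tnfsf4 and Tnfsf10 varied too little for this search.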

How the data were processed

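The deposited values are MAS5 signal intensities from the authors, 1 table of 6 arrays, per the submitters' processing notes (no version given). Each array's mean without the lowest and highest 2% was 500 in these values, so the authors had scaled each array by 1 factor, which would hide a change of most transcripts one way. Detection calls were not used here. Of 45101 probe sets 64 were controls, 34945 had 1 symbol, 932 several and 9160 none in the platform annotation; all 13 ligand probe sets kept their symbol in RefSeq annotation of GRCm38.p6. The labels give no genome build for the arrays.

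Signals were used as log2(signal + 4.45), 4.45 being the 10th percentile, which understates changes of dim genes. Genes with a main probe set at or above the array median on at least 2 arrays were kept (10838). They were tested in limma 3.58.1 (R 4.3.3; intensity trend, Benjamini-Hochberg over all genes kept, threshold 0.05) with time and genotype as additive terms, which left 2 residual and 8.99 prior degrees of freedom. The interaction model left 1, as did the fit to the 4 stimulated arrays. In both, the spread came mostly from the intensity trend over all genes and not from the gene itself. Differences of 2 single arrays carry no test. "At least" folds set the dim side at the array median. Of each list up to 4 called genes with the largest change were named, with the receptors of the ligands. Ltb, the uncalled processing enzymes and the cell type markers named were picked after their values were seen. The ligands and lists were chosen with earlier results of these data known. The tests were checked on simulated data. Alternatives were quantile normalization, median centring, pseudocounts of 1 and of the 30th percentile, other filters, averaged probe sets, no intensity trend, a fit to the 4 stimulated arrays, and omission of each array in turn.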

Additional observations from a re-analysis of the deposited data

Results flagged for a closer look

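Tnfsf11 was singled out because the genotype difference changed with stimulation, by -2.66 ± 0.49 on the log2 scale (limma, adjusted p = 8.47e-05). The untreated part of that contrast rests on 2 dim arrays (11.5 and 53). Tnfsf9 was singled out because the mean change of the 2 stimulated against the untreated array was -0.44 in wild-type and 0.87 in Nrdp1-/- cells, with all 4 stimulated arrays on opposite sides of their own untreated array. The test of that difference, the genotype-by-stimulation term, did not pass over all genes (1.31 ± 0.65, limma adjusted p = 1).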

How the results depend on the processing

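Of 440 values for the 35 ligand results under alternatives, 387 kept direction and side of the threshold, 29 lost a call, 5 gained one and 19 changed sign, of which 3 were called with the new sign. The number of ligands called at 4 h was 3, but 2 with averaged probe sets and 1 without the intensity trend (2 to 3 leaving out 1 array). At 8 h it was 4, but 3 with averaged probe sets or the filter at the 70th percentile and 1 without the trend (3 to 4). Between genotypes it was 2, but 1 with quantile normalization or the filter at the 70th percentile, 0 without a filter, with averaged probe sets or without the trend, 4 on the stimulated arrays alone, and 1 to 4 leaving out 1 array. From 4 h to 8 h it was 0, and 0 to 1 leaving out 1 array. The interaction count of 1 became 0 with averaged probe sets or without the trend. The results whose sign changed were uncalled in the reported fit. Leaving out 1 array moved Tnfsf9 from -0.37 to 0.94 at 4 h, from -0.52 to 0.79 at 8 h and from -0.56 to 0.26 between 4 h and 8 h. Tnfsf10 ranged from -0.14 to 0.34 at 8 h and from -0.11 to 0.14 between genotypes, and was -0.11 there on the stimulated arrays alone. With averaged probe sets it was 0.065 between 4 h and 8 h and 0.070 in the interaction. Tnfsf11 ranged from -0.74 to 1.36 and Fasl from -0.26 to 0.45 between 4 h and 8 h. Between genotypes Tnfsf11 ranged from -0.80 to 0.78 and was -0.14 with the pseudocount at the 30th percentile. It was -0.80 and called on the stimulated arrays alone and without either untreated array, which are 1 estimate by construction. The cause was not tested. Calls over all genes ranged from 87 to 2007 at 4 h, 108 to 2863 at 8 h, 0 to 124 between 4 h and 8 h, 99 to 621 between genotypes and 0 to 25 in the interaction, against 1465, 2075, 5, 547 and 24; the lowest came without the trend, and for the interaction also with averaged probe sets. Leaving out an array leaves 1 time with 1 array, assumed to vary like the others, and the interaction then has no residual degrees of freedom. The genotype estimate then rests on the arrays of the other times, and is the same whichever array of a time is left out. No paired analysis was possible because the labels give no replicate numbers and each group has 1 array.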

Other observations

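Tnfsf9 and Tnfsf14 lie on chromosome 17 with 1 protein-coding gene, the TNF family ligand Cd70, between their starts in the RefSeq table (GRCm38.p6). Cd70 read 21.1, 48.9 and 8.84 in wild-type and 28.3, 24.3 and 94.7 in Nrdp1-/- cells, so that it was dim on all arrays but 8 h Nrdp1-/-. Tnfsf4 and Fasl lie on chromosome 1 in the same way, with Tnfsf18 between them, which was not analysed here. The log2 differences at 4 h were 5.44 for Tnfsf14 and 0.29 for Tnfsf9, and 0.83 for Fasl and 0.30 for Tnfsf4.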
